A study of Homo sapiens with 2 samples.

Results

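CpG islands longer than 2000 bp were the subject here: 1470 stretches of the human reference genome, out of 16562 CpG islands longer than 500 bp on chromosomes 1 to 22. They were found from sequence alone with a running score that gained 17 at each CpG and lost 1 at every other base. An island ran from a CpG to the maximum of the score, with at least 55% G and C and a ratio of observed to expected CpG over 0.65. No measured value entered the choice. The 9306 islands of 500 to 1000 bp, called short islands below, were the comparison class, and 5786 islands of 1000 to 2000 bp lay between them. Long islands had a median length of 2569 bp, a median GC content of 67.8% and a median observed to expected CpG ratio of 0.814. Short islands had medians of 69.3% GC and 0.836.

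The measurement was a list of nucleosome positions in ARPE-19, a long-established human line grown from the retinal pigment epithelium, which is the pigmented layer behind the photoreceptors. The cells were grown under normal culture and taken in interphase, and there was no other condition. Micrococcal nuclease (MNase), which cuts DNA between nucleosomes, released single nucleosomes, and DNA of nucleosome size was recovered from a gel and sequenced. The 2 samples were labelled batch 1 and batch 2, but there was a single list for the study, with no value per batch, read count or score. Every value below is therefore a count of listed positions without a replicate error, and the sequencing depth behind it is unknown. The intervals in parentheses after densities are exact 95% Poisson intervals. Those after ratios are exact binomial and those after percentages Wilson intervals, also at 95%. All cover counting error only and treat positions or pairs as independent.

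A nucleosome is the unit of DNA packing, a short stretch of DNA wound around a core of histone proteins. CpG islands are stretches where CpG dinucleotides have been kept, mostly unmethylated, and many gene promoters lie in them. The longest ones are known for lying over genes of developmental regulators, such as homeobox transcription factors, many of which are held silent by Polycomb complexes in cells that do not use them. Active promoters carry a nucleosome-free stretch at the start site, with a well-placed nucleosome just downstream.

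A few sequences show what such islands look like. All are given on the plus strand of hg38 with the C and G of each CpG in capitals and all other bases in lower case. The first 3 come from the 3 single-copy islands with the most positions. Each is centred on the position nearest the island's middle whose window touches no annotated untranslated region. They lie over the homeobox genes UNCX, LHX2 and IRX4. The next 2 are the centres of 2 of the longest single-copy islands without any position, at IRS2 and CELSR1. These 2 are examples and do not stand for empty islands in general. The last shows an island edge, at SMAD7, with a listed position on each side of it.
UNCX, intron, with a position, chr7:1235289-1235439: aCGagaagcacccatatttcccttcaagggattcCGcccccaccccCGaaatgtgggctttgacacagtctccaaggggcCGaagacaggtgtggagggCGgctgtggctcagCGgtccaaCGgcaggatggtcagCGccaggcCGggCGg
LHX2, intron, with a position, chr9:124013348-124013498: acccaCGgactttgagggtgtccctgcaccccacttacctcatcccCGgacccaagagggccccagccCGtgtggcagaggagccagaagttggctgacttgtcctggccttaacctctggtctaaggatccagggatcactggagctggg
IRX4, intron and coding sequence, with a position, chr5:1880826-1880976: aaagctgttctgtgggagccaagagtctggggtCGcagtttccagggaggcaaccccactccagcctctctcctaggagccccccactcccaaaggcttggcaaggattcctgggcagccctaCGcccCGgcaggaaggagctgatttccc
IRS2, coding sequence, no position, chr13:109784902-109785052: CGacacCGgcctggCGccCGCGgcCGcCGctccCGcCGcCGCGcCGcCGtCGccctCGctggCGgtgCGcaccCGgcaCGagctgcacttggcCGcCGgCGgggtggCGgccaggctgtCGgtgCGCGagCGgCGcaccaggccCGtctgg
CELSR1, coding sequence, no position, chr22:46536118-46536268: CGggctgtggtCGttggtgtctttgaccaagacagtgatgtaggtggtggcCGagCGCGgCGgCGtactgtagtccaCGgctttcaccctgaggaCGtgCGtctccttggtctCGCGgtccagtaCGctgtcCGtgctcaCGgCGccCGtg
SMAD7, outside protein-coding genes, edge with 2 positions, chr18:48952895-48953119: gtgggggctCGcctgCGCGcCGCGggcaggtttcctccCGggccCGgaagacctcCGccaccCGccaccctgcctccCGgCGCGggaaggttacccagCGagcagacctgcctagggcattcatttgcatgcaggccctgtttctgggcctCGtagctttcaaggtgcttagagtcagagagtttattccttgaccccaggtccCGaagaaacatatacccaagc

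The UNCX, LHX2 and IRX4 windows of 151 bp held 10, 3 and 3 CpGs and had GC contents of 64.2%, 61.6% and 62.3%. UNCX and LHX2 lay wholly in introns, and IRX4 held 9 coding bases. The IRS2 window held 29 CpGs at 83.4% GC and the CELSR1 window 17 CpGs at 64.2% GC, both wholly coding. So few windows allow no comparison of windows with and without a position.

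Long islands held fewer positions per kb than short ones, by an amount that differed with the kind of island, as given below. The list put 1927 positions in the 4.91 Mb of long islands, or 0.392 per kb (0.375 to 0.410), and 3757 in the 6.74 Mb of short islands, or 0.558 per kb (0.540 to 0.576). The ratio was 0.704 (0.666 to 0.743), and the density of chromosomes 1 to 22 as a whole was 0.928 per kb. Long islands were lower on 20 of 22 chromosomes, with chromosomes 9 and 22 the exceptions. The mean log2 ratio was -0.51 ± 0.31 (SD over 22 chromosomes), and a two-sided sign-flip permutation test over chromosomes gave p = 2e-05, adjusted p = 6e-05 over the 9 tests made. Chromosomes share the same libraries, so this p measures how even the difference was along the genome and not how repeatable it was between cultures. Against a count expected from local GC content, long islands held 0.390 of the expected positions and short islands 0.588. Against islands of 1000 to 2000 bp the difference was smaller (log2 -0.16, lower on 13 of 22 chromosomes, permutation p = 0.0227).

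**Figure D1:**
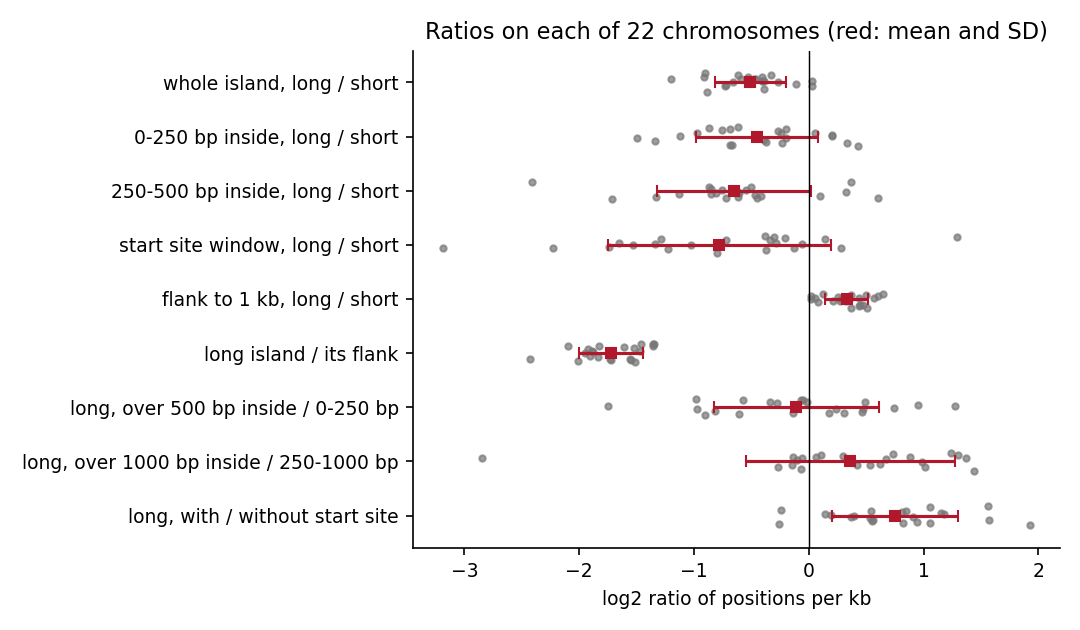
Log2 ratio of positions per kb (x axis) for each of the 9 comparisons (y axis). Grey points are single chromosomes, red squares the mean over 22 chromosomes and red bars the SD, so that long islands lie below their own flank on all 22 chromosomes while the ratio of their inner part to their edge scatters around 0.

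Many long islands were empty. No position lay in 650 of them (44.2%, Wilson 95% interval 41.7 to 46.8), 1 in 370 and 2 in 211, and 15 held 10 or more. Among short islands 6470 (69.5%) were empty, each offering less length. Of the long islands, 182 (12.4%) held at least 50% of the positions, and the 10 with the most held 142 (7.37%). This share was not computed for short islands, where 2087 (22.4%) held 1 position and 608 (6.53%) held 2. It is therefore not given as a trait of long islands. Just inside the length limit, the islands of CDH4 (2001 bp) and of FOXA1 and TTC6 (2002 bp) held 0 positions and an island nearest FOXC1 (2001 bp) held 2. Just outside it, 3 islands of 2000 bp, at H3-3A, WNT7B and DUSP7, held 0.

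The density did not fall steadily with length. It was 0.593 per kb at 500 to 750 bp, 0.524 at 750 to 1000 bp, 0.465 at 1000 to 1500 bp and 0.361 at 1500 to 2000 bp. Above 2000 bp it was 0.370, 0.354 and 0.379 in the classes to 2500, 3000 and 4000 bp, and 0.438 (0.407 to 0.471) in the 219 islands over 4000 bp. Median GC content moved with it, from 70.3% at 1000 to 1500 bp to 64.6% over 4000 bp. In single-copy islands over 4000 bp the density was 0.611 per kb (0.565 to 0.659), close to the 0.636 (0.615 to 0.658) of all single-copy short islands. Within a band of GC content, long single-copy islands were still below short ones. At 60 to 65% GC they held 0.620 per kb (0.575 to 0.668) against 0.916 (0.853 to 0.983), at 65 to 70% they held 0.429 against 0.727, and at 70% or more 0.295 against 0.463. Only 3 of 84 single-copy islands over 4000 bp with 60 to 65% GC had no position.

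**Figure D2:**
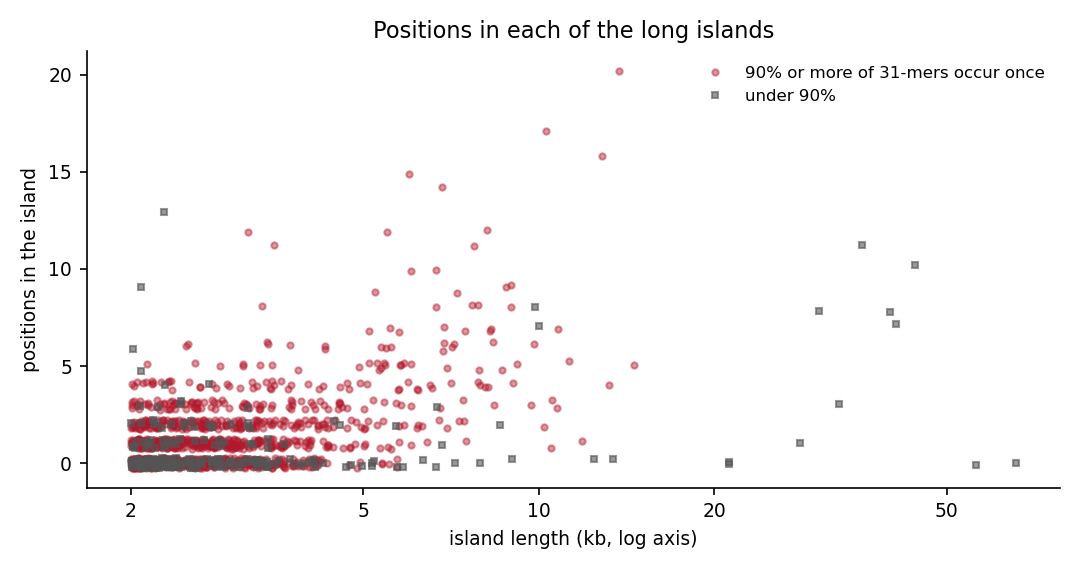
Number of positions (y axis, jittered slightly) against island length (x axis, kb, log axis) for each of the 1470 long islands. Red circles are islands with at least 90% of their 31-mers occurring once in the genome, grey squares the others. The longest red islands reach 14580 bp, while the longest grey ones, up to 65589 bp, hold at most 11 positions.

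The longest islands of all consisted mostly of sequence that occurs more than once in the genome. A sequence was called single-copy here where at least 90% of its 31-base words occurred once on chromosomes 1 to 22 and X. This held for 1245 long islands. The 10 longest all failed it, with at most 13.4% of such words. The 2 longest, on chromosome 21 (65589 and 56145 bp), covered ribosomal RNA genes, RNA45SN1 and RNA45SN3 in the first and RNA45SN2 in the second, and held 0 positions. An island of 40047 bp on chromosome 1 covered the 5S ribosomal RNA genes and held 8. One of 32637 bp with 23 transfer RNA genes held 3, and the islands over DUX4L pseudogenes on chromosomes 4 (28044 bp) and 10 (21188 bp) held 1 and 0. The 225 islands under the limit made up 21.8% of the bases and held 0.183 per kb (0.158 to 0.210), against 0.451 per kb (0.430 to 0.473) in the single-copy ones. The 84 islands with under 20% of words occurring once held 0.102 per kb. How reads that match several places were treated is not given in the sources used here, and its part in these low values was not tested.

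From the flank to the island, the density changed in steps. The flank from 2000 to 4000 bp away held 1.28 positions per kb, and the last 250 bp outside the edge 0.863. The first 100 bp inside held 0.714, and the stretch from 100 to 250 bp inside 0.279 (0.232 to 0.333), the lowest of any zone. Long islands as a whole held 0.305 (0.290 to 0.320) of the density of their own flank at 1000 to 4000 bp. They were lower on all 22 chromosomes (mean log2 ratio -1.72 ± 0.28, sign-flip permutation p = 2e-05, adjusted p = 6e-05).

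At finer scale, the density around the edge had a pair of local crests. In bins of 25 bp, long islands held 1.25 positions per kb in the bin 125 to 100 bp outside, 0.368 in the next bin towards it, and 1.02 from 50 to 75 bp inside, before falling to 0.204 from 100 to 125 bp inside. The outer crest did not exceed the flank: the bin before it held 1.24 per kb, and the flank from 2000 to 4000 bp away 1.28. The crests of long islands lay 175 bp apart. Short islands had the same order of values, 1.06 from 125 to 100 bp outside and 0.918 from 25 to 50 bp inside, then 0.305 from 100 to 125 bp inside. The pair was seen in the sum over islands. How often independent crests would both be filled at the same edge was not computed. Whether the crests go together at single edges was therefore not tested. Among 2490 edges of single-copy long islands, 5 carried a position in both crests. One of those was the right edge of the SMAD7 island printed above, a gene for an inhibitor of TGF-beta signalling. Its positions lay at 48953115, outside, and 48952921, inside.

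**Figure D3:**
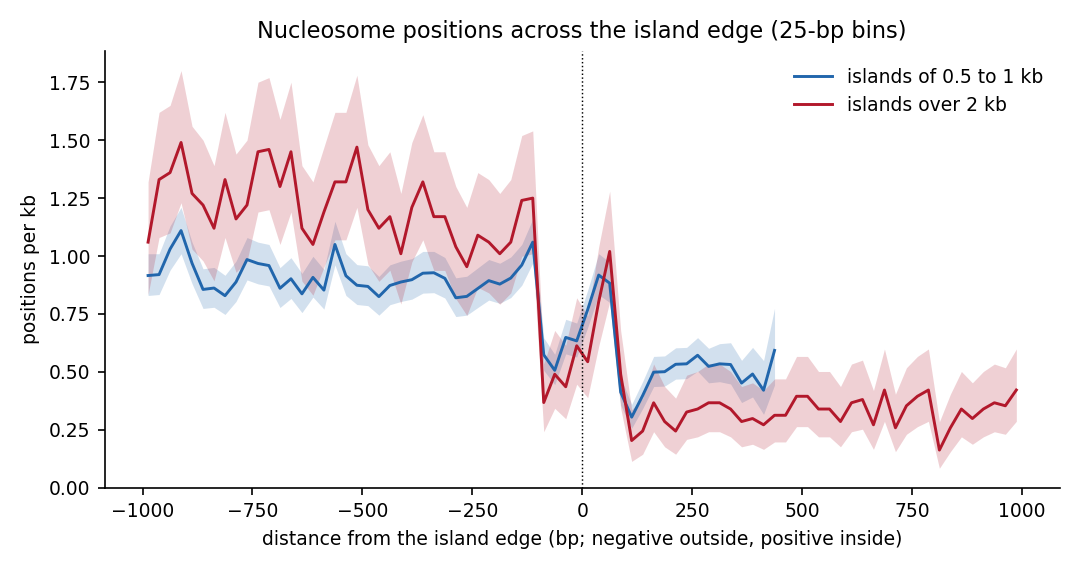
Positions per kb (y axis) by distance from the nearest island edge (x axis, bp, 25-bp bins, negative outside and positive inside), for long islands in red and short islands in blue. Shading is the 95% Poisson interval. Both classes show a crest about 110 bp outside the edge and another inside it, at 50 to 75 bp in long islands and 25 to 50 bp in short ones. Further inside, the long islands run below the short ones, and in the flank they run above them.

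Compared at the same depth from the edge, long islands were lower inside and higher outside. In the first 250 bp inside they held 0.453 per kb against 0.575 in short islands (ratio 0.787, 0.701 to 0.883; log2 -0.45 ± 0.53, lower on 17 of 22 chromosomes, sign-flip permutation adjusted p = 0.00111). From 250 to 500 bp inside they held 0.329 against 0.519 (ratio 0.635, 0.550 to 0.730; log2 -0.65 ± 0.67, lower on 18, permutation adjusted p = 0.000252). Equal depth from the edge is not equal distance from a start site. Short islands had a median of 270 bp of island upstream and 447 bp downstream of a start, long ones 1115 and 1525 bp. The crest just downstream of starts, described below, thus lies nearer the edge in short islands. Its part in these differences was not tested. In the 1000 bp outside the edge the order turned, with 1.14 against 0.878 per kb (ratio 1.30, 1.25 to 1.35), higher for long islands on all 22 chromosomes (log2 0.33 ± 0.19, permutation adjusted p = 6e-05).

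Towards the centre the values rose in single-copy islands. In these, the density was 0.297 per kb from 100 to 250 bp inside, 0.353 to 500 bp, 0.360 to 1000 bp, 0.436 to 1500 bp and 0.710 (0.646 to 0.779) beyond 1500 bp. GC content fell from 69.0% at 250 to 500 bp to 62.8% beyond 1500 bp, and the ratio of observed to GC-expected positions went from 0.402 to 0.601. In the islands of repeated sequence there was no such rise, with 0.196 per kb at 250 to 500 bp and 0.140 beyond 1500 bp. Over all long islands, the part more than 1000 bp inside held 0.433 per kb against 0.336 at 250 to 1000 bp. That difference did not pass the test (log2 0.36 ± 0.91, higher on 15 of 22 chromosomes, sign-flip permutation p = 0.0695, adjusted p = 0.0782). In single-copy islands alone it did (log2 0.66, higher on 21, permutation p = 2e-05), and it also did in single-copy islands against the GC expectation (log2 0.35, higher on 18, permutation p = 0.0005), a setting added after seeing the data. Over all long islands the GC expectation left little of it (log2 0.06, higher on 12 of 22 chromosomes, permutation p = 0.801). The part more than 500 bp inside, at 0.393 per kb, was not separable from the first 250 bp, at 0.453 (log2 -0.11 ± 0.72, permutation p = 0.490). The deeper zones hold fewer and longer islands, since only islands over 3000 bp reach beyond 1500 bp, so the zones are not the same islands throughout. In single-copy islands over 4000 bp the density went from 0.400 per kb (0.280 to 0.554) at 250 to 500 bp to 0.751 (0.680 to 0.828) beyond 1500 bp. In those of 2000 to 4000 bp it went from 0.346 (0.297 to 0.399) to 0.460 (0.330 to 0.624), with overlapping intervals.

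**Figure D4:**
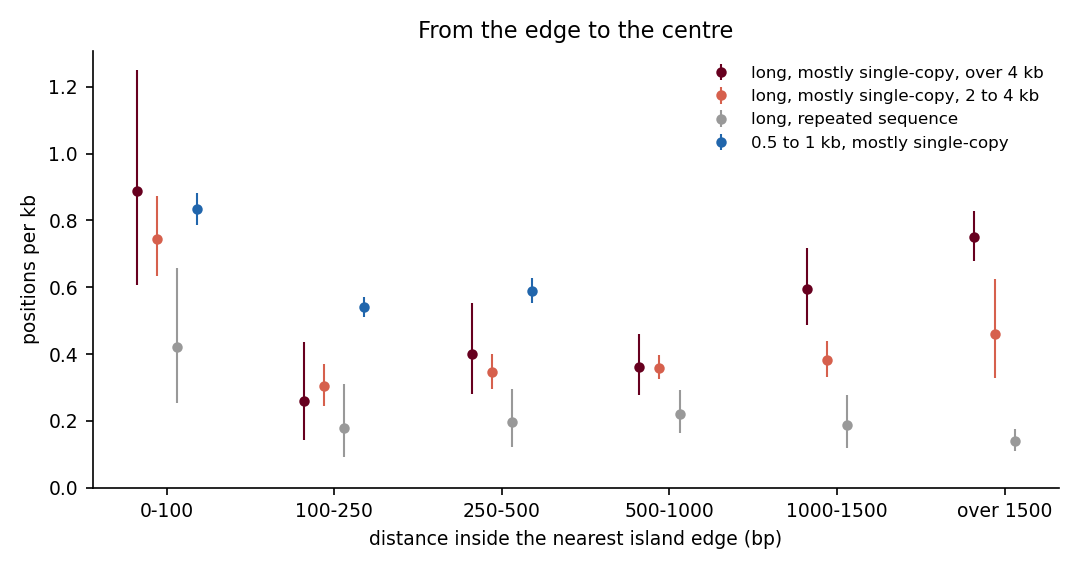
Positions per kb (y axis) in zones by distance inside the nearest edge (x axis, bp), with 95% Poisson intervals, for single-copy long islands over 4 kb and of 2 to 4 kb, long islands of repeated sequence, and single-copy short islands. Beyond 1500 bp the islands over 4 kb stand at 0.751 per kb, those of 2 to 4 kb at 0.460 and the repeated ones at 0.140.

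Coding sequence stood out as the emptiest portion of long islands. In single-copy long islands coding exons held 101 positions, 0.150 per kb (0.122 to 0.183), while introns held 814, 0.534 per kb (0.498 to 0.572). Untranslated exons held 0.413 per kb, and sequence outside protein-coding genes 0.549. Coding exons made up 17.5% of the bases and 5.83% of the positions, and lay below introns on 21 of 22 chromosomes. GC content was 69.6% in coding and 66.5% in intronic sequence, and observed over GC-expected positions were 0.194 and 0.499. In single-copy short islands the contrast was smaller, with 0.547 per kb in coding exons and 0.640 in introns, and coding below introns on 15 of 22 chromosomes. This division was made after the values were seen, and the difference between the classes was not tested. Positions 500 bp or more inside single-copy long islands had 10.4 ± 5.74 CpGs in the 150 bp around them, against 13.4 ± 6.52 over all bases of that zone (mean and SD over positions or bases). Their GC content was 64.2% against 66.7%.

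Most long islands lay at promoters. A protein-coding start site, from GENCODE 44, lay in 1058 (72.0%). The share was 68.7% in islands of 1000 to 2000 bp and 50.8% in short islands. A longer island has more room to hold a start. A further 73 long islands held only the start of a long noncoding RNA gene, 217 lay inside a protein-coding gene and 122 between genes. Islands with a protein-coding start held 0.450 per kb (0.427 to 0.473) and those without 0.272 (0.247 to 0.299), higher with a start on 20 of 22 chromosomes (log2 0.75 ± 0.55, sign-flip permutation p = 3e-05, adjusted p = 6.75e-05). Repeated sequence moved with this: 79.0% of single-copy long islands held a start and 32.9% of the others. Among single-copy islands the values were 0.459 and 0.416 per kb, and the difference did not pass the test (log2 0.19, permutation p = 0.147). With the GC expectation added, it passed (log2 0.29, higher on 15 of 22 chromosomes, permutation p = 0.0190). The gap between long and short single-copy islands varied by kind. With a protein-coding start they held 0.459 against 0.736 per kb, and with only a long noncoding RNA start 0.419 against 0.598. Inside a protein-coding gene the values were closer, 0.377 against 0.405, as they were between genes, 0.526 against 0.585. The gap was not tested by kind.

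The start site itself was close to empty in both classes. From 50 bp upstream to the start, long islands held 1 position in each 25-bp bin over about 1168 starts (0.0344 and 0.0343 per kb), and the bin just after the start held 3 (0.103 per kb). Downstream, the density of long islands rose to 1.20 per kb at 100 to 125 bp and 1.07 at 125 to 150 bp. In short islands the same crest reached 2.91 and 3.45 per kb. Windows from 200 bp upstream to 50 bp downstream were laid around the starts and not cut at the island edge. Those of long islands held 64 positions, 0.221 per kb (0.171 to 0.283), and those of short islands 504, 0.411 per kb (0.376 to 0.449). The ratio was 0.539 (0.409 to 0.700; log2 -0.78 ± 0.97, lower on 19 of 22 chromosomes, sign-flip permutation adjusted p = 0.00111). Against the GC expectation the difference no longer passed (log2 -0.34, permutation p = 0.104). The lower quartile of island upstream of a start was 173 bp in short islands and 591 bp in long ones. More windows of short islands therefore reach into the flank, which held 0.793 per kb in its last 250 bp. The ratio thus does not compare island sequence alone, and the part of the flank in it was not tested. A start in a long island had a median of 1115 bp of island upstream and 1525 bp downstream. In long islands with 1 start, the upstream side held 0.520 per kb (0.480 to 0.562) and the downstream side 0.407 (0.378 to 0.437). Short islands had the opposite order, 0.637 upstream and 0.713 downstream. Islands of 1000 to 2000 bp had the order of long ones, 0.567 and 0.366. The sides differ in length: a start in a short island had a median of 270 bp upstream and 447 bp downstream. The crest at 100 to 150 bp downstream thus fills more of the short downstream side, and the orders are not compared at equal distances.

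The positions inside long islands kept a nucleosome spacing. Pairs of positions in the same island were most frequent at 180 to 199 bp, with 122 pairs or 1.32 per Mb of island for each bp of distance, and again at 360 to 379 bp with 0.698. Pairs at 170 to 210 bp were 5.71 times (4.39 to 7.51) as frequent as pairs at 90 to 130 and 250 to 290 bp. The same ratio was 4.14 (3.19 to 5.41) in short islands and 4.10 over chromosomes 1 to 22, so the intervals of long and short islands overlapped. When positions closer than 100 bp were merged it was 9.32 (6.53 to 13.6) in long and 4.41 (3.33 to 5.88) in short islands. Merging by itself removes the pairs from 90 to under 100 bp, which count as out of phase, so part of the rise was fixed in advance. Out-of-phase pairs went from 77 to 38 in long and from 87 to 74 in short islands. In single-copy islands it was 7.45 (5.44 to 10.4) in long and 4.23 (3.22 to 5.60) in short ones. Very close neighbours made up a smaller share in long islands than in short ones. Of neighbouring positions in long islands, 10.6% (8.89 to 12.5) lay under 60 bp apart. In islands of 1000 to 2000 bp the share was 16.8% (14.7 to 19.1), and in short islands 22.1% (19.6 to 24.9). Over the chromosomes it was 9.06%. A short island has no room for distant neighbours, which raises its share of close ones. Scaled by the room available, pairs at 20 to 39 bp stood at 0.801 (0.633 to 1.00) in long and 1.13 (0.954 to 1.33) in short islands. Pairs at 40 to 59 bp stood at 0.362 and 0.375. That scaling leaves the lower density of long islands in place (0.392 against 0.558 positions per kb). A deficit of close neighbours per position is therefore not shown.

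**Figure D5:**
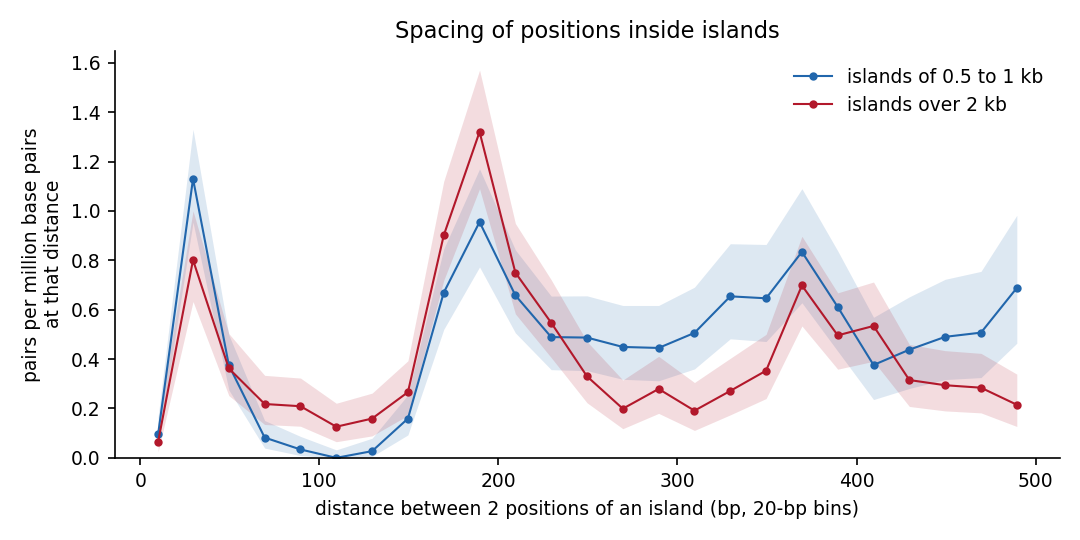
Pairs of positions per Mb of island for each bp of distance (y axis) against the distance between the 2 positions (x axis, bp, 20-bp bins), within long islands in red and short islands in blue, with 95% Poisson intervals as shading. Long islands reach 1.32 at 180 to 199 bp and rise again to 0.698 at 360 to 379 bp.

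Regular runs were rare. A run was a series of neighbouring positions 140 to 239 bp apart. Runs of at least 3 positions occurred in 37 long islands (2.52%) and in 15 short islands (0.161%), or 7.53 and 2.23 per Mb of island, where a short island has less room for one. Runs of 4 or more occurred in 9 long islands, and the 2 longest had 6 positions. At ISLR2, a neuronal membrane protein with leucine-rich repeats, they ran from 74127838 to 74128705 on chromosome 15 with gaps of 184, 184, 178, 173 and 148 bp. At NFATC1, a calcium-regulated transcription factor, they ran from 79398409 to 79399365 on chromosome 18 with gaps of 197, 192, 201, 179 and 187 bp. Runs of 4 lay, among others, over the homeobox genes EN2, LHX1, LHX2 and UNCX, the zinc finger repressor SCRT1 and the transcriptional coregulator MN1. The search for runs was added after the values were seen, and no test was made of it.

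Genes of developmental regulators often began in long islands. Families were taken by gene symbol, so that FOXL2NB, a neighbour of FOXL2 that is not a forkhead gene, is counted under FOX. Of 204 genes with symbols of 17 transcription factor families, 84 (41.2%) had their start in one, 41 in an island of 1000 to 2000 bp, 16 (7.84%) in a short island and 63 in none. Of all 19111 protein-coding genes, 1168 (6.11%) began in a long island and 5209 (27.3%) in a short one. All 5 GATA genes, 5 of 6 IRX genes, 10 of 14 NKX genes, 9 of 18 SOX genes, 21 of 49 FOX genes and 4 of 8 LHX genes began in long islands. Among HOX genes, 5 of 39 did. Of the families outside this group, WNT ligands had 6 of 19 and the BMP and GDF ligands 3 of 21. Zinc finger genes named ZNF had 19 of 503 (3.78%) in long and 41.6% in short islands, ribosomal protein genes 3 of 80 and proteasome genes 1 of 47. These counts come from the annotation and sequence alone.

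Families differed in how many positions their islands held, and no test was made of it. The 83 long islands with a start of the 17 families held 222 positions, 0.603 per kb (0.526 to 0.688), and 19 (22.9%) were empty. The 975 other long islands with a start held 0.430 per kb (0.407 to 0.455), and 41.6% were empty. The first group had longer islands, with a median of 3320 against 2546 bp, and lower GC content, 65.5% against 68.5%. Within 60 to 65% GC the values were 0.718 (0.598 to 0.854) and 0.596 (0.541 to 0.656), and within 65 to 70% they were 0.474 and 0.440, with overlapping intervals in both bands. By family, the LIM homeobox genes stood at 1.37 per kb (0.996 to 1.83, 4 islands), HOX at 0.900 (0.479 to 1.54, 5 islands) and IRX at 0.781 (0.544 to 1.09, 5 islands). GATA stood at 0.590 (0.337 to 0.958, 5 islands), SOX at 0.367 (0.195 to 0.627, 9 islands) and ZIC at 0.162 (0.0197 to 0.587, 3 islands). FOX, with the most islands, stood at 0.426 (0.289 to 0.605, 20 islands), close to the islands of other genes, and TBX, EMX and OTX at 0.242, 0.324 and 0.404. Of the 222 positions, LHX islands held 45 and IRX islands 35. Of the 45, LHX2 held 17 and LHX3 14. Both lie on chromosome 9, whose long islands held 0.657 per kb against 0.392 over all long islands. LHX1 and LHX4 stood at 0.891 and 0.875 per kb. The intervals by family treat positions as independent and leave out such differences between islands. Members of other families differed too. IRX4 had 16 positions in 12836 bp, IRX1 had 9 in 8783 bp, IRX2 had 5 in 8656 bp, IRX3 had 4 in 9020 bp and IRX5 had 1 in 5518 bp. GATA6, GATA3 and GATA2 had 3, 2 and 3 positions in 7427, 6955 and 6779 bp, GATA4 had 8 in 3360 bp and GATA5 had 0 in 2599 bp.

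The island with the most positions was that of UNCX, a homeobox factor of the axial skeleton, with 20 in 13699 bp (1.46 per kb). Of these 19 lay 500 bp or more from an edge. The start site had none between 1211 bp upstream and 2234 bp downstream, and 18 of the 20 lay downstream. LHX2, a LIM homeobox factor needed for eye formation, followed with 17 in 10290 bp (1.65 per kb), none of them between 1476 bp upstream and 999 bp downstream of the start. IRX4, a factor of the heart ventricle, had none between 450 bp upstream and 2024 bp downstream. The 15 positions of GDF7, a ligand of the BMP family, all lay downstream of its start, the nearest at 889 bp, and several of them were closer together than a nucleosome is long. The 14 of LHX3, a factor of pituitary development, also lay downstream, the nearest at 494 bp, and the 12 of ISLR2 lay upstream, the nearest at 397 bp. In none of these 6 islands did a position lie closer than 397 bp to the start.

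By density, ISLR2 led the single-copy islands with 3.78 per kb. It was followed by HELT, a basic helix-loop-helix repressor (11 positions, 3.12 per kb), GDF7 (2.50), VAX2, a homeobox factor of the ventral retina (6 positions, 2.41), and an island in DMRTA2 (6 positions, 2.39). GATA4, NFIB, ISL2, LHX3 and ROR2 had between 2.38 and 1.99 per kb. Counts of this size are small, and these islands were ranked by the value itself. LHX2, LHX3, NFIB and ROR2 lie on chromosome 9 and ISLR2 and ISL2 on chromosome 15, which as whole chromosomes held 1.26 and 1.23 positions per kb against 0.928 over chromosomes 1 to 22. The part of this in their ranks was not tested. An island nearest NBPF1 had 13 positions in 2276 bp (5.71 per kb), with 73.8% of its 31-base words occurring once. CBX8, a Polycomb subunit, had 12 positions in 8148 bp.

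Length alone did not set the count. The longest single-copy island, at the zinc finger repressor ZNF503, had 5 positions in 14580 bp. The forkhead gene FOXC1 had 5 in 11260 bp. NKX2-2 had 7 in 10782 bp, TNRC18 and EBF3 had 3 each in 10753 and 10527 bp, and the island shared by CIRBP and FAM174C had 1 in 10504 bp. An island inside PLEC, a linker of the cytoskeleton, had 1 in 11865 bp. Among the longest single-copy islands with 0 positions were those at IRS2, an adaptor of insulin signalling (5714 bp, 74.2% GC), and at CELSR1, a cadherin of planar cell polarity (5544 bp). The Notch ligand DLL4 (5391 bp), the pair GIT1 and ANKRD13B (5387 bp), POU3F3 (4937 bp), ZNF423 (4880 bp) and BHLHE41, a repressor of the circadian clock (4730 bp, 59.1% GC), also had 0.

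Of 15 genes of eye development and pigment epithelium function, 4 began in a long island. PAX6, the paired-box regulator of eye development, had 4 positions in 8193 bp (0.488 per kb), LHX2 had 17, SIX6 had 1 in 2448 bp and SOX9, a regulator used in pigment epithelium, had 2 in 4258 bp. MITF, which directs pigment cell genes, began in a short island of 779 bp with 2 positions, and RAX began in an island of 1916 bp with 0. Among the rest, OTX2, SIX3, SOX2, RPE65, BEST1, TYR, PMEL and RLBP1 had their annotated start in no island longer than 500 bp. Transcription was not measured here, so no level of these genes can be set beside the counts.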

How the data were processed

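MNase-seq was made from 2 samples of interphase ARPE-19 cells, labelled batch 1 and batch 2. Reads were aligned to hg38 with Bowtie2, per the submitters' processing notes. The program that called positions, its score limit and whether the batches were pooled are not given in the sources used here. The name of the list carries a range of numbers, but whether it was the fragment filter is not stated there. The single deposited list has 2634347 rows of 1 bp, 4 of them repeated. It gives coordinates only, without reads, intensities or scores. On chromosomes 1 to 22 it holds 2558490 distinct positions in 2756 Mb.

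Islands were computed from the hg38 sequence and starts taken from GENCODE 44. RefSeq was used only to name the genes that overlap the 10 longest islands. Densities were compared per chromosome as log2 ratios, with 0.5 added to each count, by a two-sided sign-flip permutation test of 100000 draws over 22 chromosomes (smallest p 1e-05), Benjamini-Hochberg adjusted over 9 tests. GC-expected counts used each chromosome's density per 2% bin of GC in the surrounding 200 bp. The counting was tested on simulated positions. Alternatives were another definition of each class, islands of 60 to 70% GC, joining islands under 200 bp apart, merging positions within 100 bp, single-copy islands, the GC expectation, and leaving out empty 100-kb windows, chromosome 15 or the outer 2 Mb of each chromosome.

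The islands named are the 10 longest, the 10 longest without a position, the 10 with the most positions and the 10 densest single-copy ones, with the 3 on either side of the length limit and set gene families. Lists of the longest single-copy islands, runs, coding sequence, pooled families and GC bands were added after seeing values. A few islands and genes that these rules name are not reported here. The members and lists were chosen with earlier results of these data known. Python 3.11.15, numba 0.67.0, pandas 2.3.3, numpy 2.4.6 and scipy 1.17.1 were used.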

Additional observations from a re-analysis of the deposited data

Results flagged for a closer look

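Chromosome X entered none of the comparisons. It has 42 islands longer than 2000 bp, and the list put 60 positions in their 187 kb, or 0.320 per kb (0.244 to 0.412), above the 3 counts that a count of 0 allows. The 347 islands of 500 to 1000 bp on chromosome X held 95 positions, 0.374 per kb. Chromosome X as a whole held 0.481 positions per kb, against 0.928 on chromosomes 1 to 22.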

How the results depend on the processing

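Over the 9 tests, 95 alternatives were computed: 83 kept direction and side of the threshold, 5 lost the call, 4 gained it and 3 turned the direction. The inner part over the edge (log2 -0.11) turned to 0.04 with single-copy islands, 0.01 with islands over 3000 bp and 0.18 with single-copy islands and the GC expectation, passing in none. The centre over the part before it (log2 0.36, p = 0.0695) passed the permutation test without empty windows (0.49, p = 0.00046), with single-copy islands (0.66, p = 2e-05), over 3000 bp (0.60, p = 0.0162) and with single-copy islands and the GC expectation (0.35, p = 0.0005), but stood at 0.06 with the GC expectation alone (p = 0.801). The excess of islands with a start (0.75) was 0.19 in single-copy islands (permutation p = 0.147) and 0.29 with the GC expectation added (p = 0.0190). The lower density of whole long islands (-0.51) was -0.16 against islands of 1000 to 2000 bp (permutation p = 0.0227). The lower start window (-0.78) no longer passed with the GC expectation (-0.34), over 3000 bp (-0.22), against islands of 1000 to 2000 bp (-0.38) and with single-copy islands and the GC expectation (-0.36). The spacing ratio moved from 5.71 to 9.32 on merging positions, a step that by itself removes out-of-phase pairs closer than 100 bp. The cause of these changes was not tested. No paired analysis was possible because the 2 batches share 1 list, and for the same reason neither batch could be left out. Depth per batch is unknown, so an island without a position shows only that none was listed.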
